A study of Mus musculus with 2 samples.

Results

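The 10 genes described here carry out antigen presentation by MHC (major histocompatibility complex) class I molecules. They were found as every non-control probe that the array files name H2-D1, H2-K1, H2-T23, B2m, Tap1, Tap2, Tapbp, Psmb8, Psmb9 or Psmb10. All 10 genes were on the array, with 18 of its 41174 probes, and they were 10 of 15877 genes well above background, which here means on both arrays in at least 1 of the RNAs. RNA of primary fibroblasts from embryos of LATS2-/- C57BL/6J mice (labelled KO) was compared with RNA of fibroblasts from LATS2+/+ C57BL/6J embryos (labelled WT), both untreated. Lats2 is a kinase of the Hippo pathway. Both RNAs were hybridised together to 2 arrays, with the KO RNA in the red dye Cy5 on one and in the green dye Cy3 on the other. The labels name no separate cultures or embryos. The arrays were therefore counted as 1 replicate, and no difference between the genotypes could be tested.

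A class I molecule is a heavy chain bound to beta-2 microglobulin, the light chain, and it shows a peptide from inside the cell to T cells and natural killer cells. The peptides are cut by the proteasome, whose catalytic subunits are exchanged for interferon-inducible ones in the immunoproteasome. The Tap1 and Tap2 transporter carries the peptides into the endoplasmic reticulum, where tapasin, the product of Tapbp, holds the empty heavy chain next to the transporter until it is loaded. Nearly all body cells present on class I, and fibroblasts raise the pathway in response to interferon.

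Of the 10 genes, Tapbp was lower in the RNA labelled KO by 1.56-fold, the immunoproteasome subunit Psmb8 by 1.49-fold (2.28-fold by the scanner software's own ratio), and B2m was higher by 1.45-fold, each with the same direction on both arrays. The classical heavy chains H2-K1 and H2-D1 stood at 86.9% of WT, and H2-T23 and Psmb10 lay within 1 SD of equal levels. Each of these is the mean of both arrays for the brightest probe of the gene, as are all values below unless another probe is named. No gene was 2-fold lower or higher on both arrays, where 2.61% of all genes tested were lower and 2.95% higher. At 1.5-fold on both arrays 1 gene, Tapbp, was lower and 0 were higher, where 7.17% and 7.04% of all genes were. The median of the 10 log2 ratios of KO over WT was -0.08 (-0.10 on the array with KO in Cy5 and -0.04 on the other), beside -0.0037 over all genes tested.

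Across probes well above background the log2 ratios of the arrays correlated at Pearson's r of 0.937 (22357 probes, which share hybridisations and are not independent). A probe's ratio varied between the arrays with an SD of 0.14 on the log2 scale, so that the mean of both arrays had an SD of 0.097, a technical error without the spread between embryos. All 18 probes were well above background in both RNAs on both arrays. The Lats2 probes went against the label: 3 of 4 were higher in the RNA labelled KO, with log2 ratios from -0.35 to 0.63. The labels do not say which part of the gene was removed, so these probes may lie outside it. The labels could also be exchanged, which would reverse every direction given here. Neither was tested, and the RNAs are called by their labels throughout. Fibroblast markers were present, with 9 of 9 well above background on both arrays in at least 1 of the RNAs. The probe of Vim was above background in the RNA labelled KO on only 1 of the 2 arrays.

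**Figure D1:**
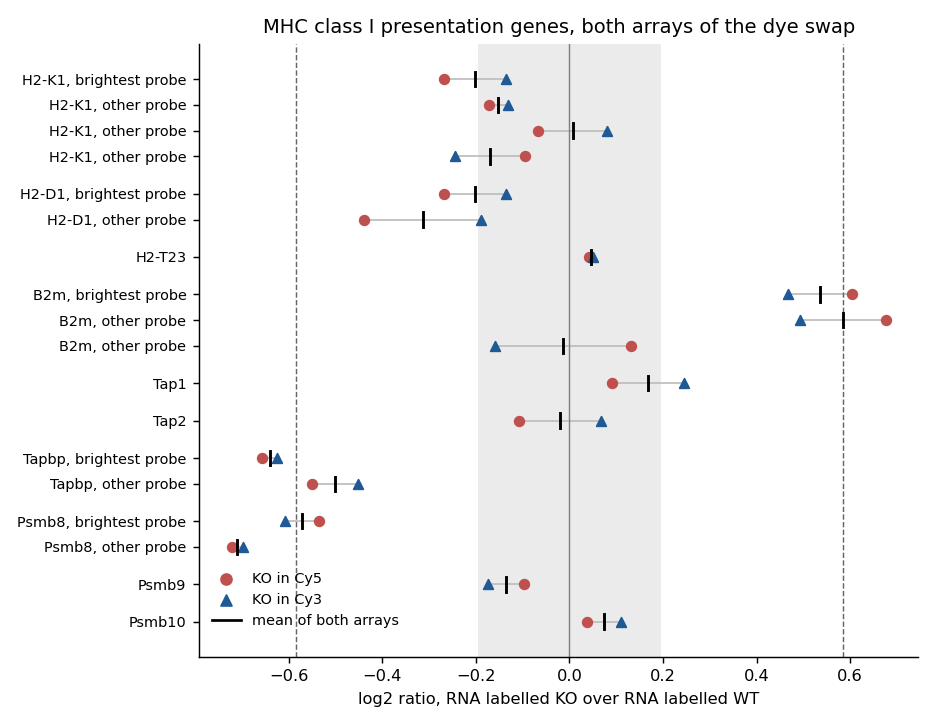
Log2 ratio of the RNA labelled KO over the RNA labelled WT (x axis) for all 18 probes of the 10 genes, with the array with KO in Cy5 as circles, the array with KO in Cy3 as triangles and their mean as a bar. The grey band is 2 SDs of a mean of both arrays (0.19) around 0 and the dashed lines mark 1.5-fold. Both Tapbp and both Psmb8 probes lie left of the band and 2 of 3 B2m probes lie right of it.

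Classical heavy chain genes and B2m have promoters known to respond to interferon and to NF-kappa B, and these are shown beside the loading genes so that they can be set beside the ratios. The 250 bases before the start are given 5′ to 3′ on the gene's strand from RefSeq (GRCm38.p6), for H2-K1 from chr17:34000348-34000597, for H2-D1 from chr17:35262844-35263093, for B2m from chr2:122147437-122147686 and for Tapbp from chr17:33919228-33919477. Tap1 and Psmb9 are transcribed away from each other, and the 225 bases between their starts, chr17:34187331-34187555, are given on the strand of Tap1. Capitals mark every match on either strand to GAANNGAAA (an IRF core), GAAANNGAA (the core of the interferon-stimulated response element), GGGATTCCC (a kappa B core), TGACG (a CRE half-site) or CCAAT.
H2-K1: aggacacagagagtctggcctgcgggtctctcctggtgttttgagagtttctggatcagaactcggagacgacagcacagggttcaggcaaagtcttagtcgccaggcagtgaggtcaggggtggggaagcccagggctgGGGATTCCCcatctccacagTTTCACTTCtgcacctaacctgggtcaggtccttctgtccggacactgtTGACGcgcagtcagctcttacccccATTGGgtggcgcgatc
H2-D1: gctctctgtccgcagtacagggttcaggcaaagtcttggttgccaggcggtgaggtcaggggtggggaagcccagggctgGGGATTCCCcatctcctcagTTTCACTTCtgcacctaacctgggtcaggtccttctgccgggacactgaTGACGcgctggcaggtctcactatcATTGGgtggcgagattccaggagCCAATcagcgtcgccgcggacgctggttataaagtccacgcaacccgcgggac
B2m: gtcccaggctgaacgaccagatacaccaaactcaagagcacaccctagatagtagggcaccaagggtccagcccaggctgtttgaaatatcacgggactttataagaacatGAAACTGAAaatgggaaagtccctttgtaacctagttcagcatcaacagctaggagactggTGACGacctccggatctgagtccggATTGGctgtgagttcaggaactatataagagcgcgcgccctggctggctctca
Tap1 and Psmb9: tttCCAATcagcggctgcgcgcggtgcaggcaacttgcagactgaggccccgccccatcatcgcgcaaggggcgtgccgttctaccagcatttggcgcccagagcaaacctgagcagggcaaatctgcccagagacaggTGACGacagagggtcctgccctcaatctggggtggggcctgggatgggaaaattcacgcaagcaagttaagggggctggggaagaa
Tapbp: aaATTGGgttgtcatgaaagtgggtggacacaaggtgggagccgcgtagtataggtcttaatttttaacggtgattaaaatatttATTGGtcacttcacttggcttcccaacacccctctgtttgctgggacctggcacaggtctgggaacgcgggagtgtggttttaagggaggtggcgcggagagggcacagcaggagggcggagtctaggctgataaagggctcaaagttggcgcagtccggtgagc

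These motifs were chosen with the promoters in view, and a match is a description of letters. H2-K1 and H2-D1 both held the kappa B core, which 0.301% of all 32851 promoter windows of that length hold, and the IRF core, held by 6.31%. In H2-D1 the kappa B, IRF and CRE matches and the CCAAT match nearest to them lay 60 bases further upstream than in H2-K1. The spacing between the matches was therefore the same, and the longest run of identical bases in the 2 windows was 47 bases. H2-K1 had 2 annotated starts and H2-D1 had 1, so the 60 bases depend on the start used. B2m held the response element core, present in 7.13% of windows, with a TGACG (17.8% of windows) and a CCAAT box (33.8%). H2-T23 held the response element core and a CCAAT box. The bases between Tap1 and Psmb9 held 1 TGACG and 1 CCAAT box, Tapbp held 2 CCAAT boxes, and the windows of Psmb8 and Psmb10 held none of the letters searched. A promoter was found in the table for 9 of the 10 genes.

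Among the heavy chains, H2-K1 and H2-D1, the classical molecules that present to cytotoxic T cells, were slightly lower in the RNA labelled KO. The brightest H2-K1 probe (chr17:33606564-33606623, on mm8 as all probe positions) read a normalised signal of 2732 in KO and 3291 in WT with KO in Cy5, and 2802 and 3078 with KO in Cy3, in arbitrary units with an offset of 50 included. KO was below WT on both arrays and the RNAs did not overlap, with log2 ratios of -0.27 and -0.14. This probe was spotted 10 times on each array. With KO in Cy5 its spots ran from -0.30 to -0.23, and with KO in Cy3 from -0.17 to -0.11, so the ranges of the arrays did not meet, although the spots within an array differed by an SD of only 0.022 and 0.020.

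The other 3 H2-K1 probes gave log2 ratios of -0.15, -0.17 and 0.01, the last with opposite signs on the arrays. For H2-D1 the brightest probe (chr17:34874240-34874299, mm8) read 2614 in KO and 3148 in WT, then 2739 and 3010 with the dyes exchanged. KO was the lower RNA on both arrays, at log2 ratios of -0.27 and -0.14. The second H2-D1 probe was lower too, at -0.44 and -0.19. The mean of both arrays for the brightest probes was -0.20 in each gene, 2.09 SDs from 0, and 27.8% of all genes tested lay lower than H2-D1. The log2 ratios of these H2-D1 and H2-K1 probes differed by less than 0.001 on each array. Heavy chain genes are close copies of each other, and whether a probe read the RNA of more than 1 of them was not tested.

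H2-T23 encodes Qa-1, a non-classical heavy chain read by inhibitory receptors of natural killer cells. Its probe, at chr17:35638446-35638682 on mm8, read 2995 in KO and 2909 in WT with KO in Cy5, and 2887 and 2788 with KO in Cy3. KO was the higher by a small margin on both arrays, with log2 ratios of 0.04 and 0.05, inside 1 SD of the mean (0.478 SDs).

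B2m, the light chain shared by all class I molecules, was the only one of the 10 genes above 0 by more than 2 SDs of the mean. Its brightest probe (chr2:121844106-121844165, mm8) read 30286 in KO and 19935 in WT with KO in Cy5. With KO in Cy3 it read 29224 and 21139. KO was higher on both arrays with no overlap, at log2 ratios of 0.60 and 0.47, a mean of 0.54 (SD 0.096 between arrays). A second probe, at chr2:121844230-121844286, read 15494 and 9696, then 14951 and 10620. Its 10 spots lay between 0.61 and 0.73 with KO in Cy5 and between 0.46 and 0.53 with KO in Cy3, all above 0. The remaining, dim probe, designed to another cDNA record and lying at chr2:121840304-121840363, was at 0.13 and -0.16, on opposite sides of 0.

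The log2 ratio of B2m exceeded that of H2-K1 by 0.87 on one array and 0.60 on the other. The mean gap of 0.74 was 5.39 times the SD of such a difference, 0.14. The ratios of light and heavy chain transcripts differed by more than the spread between arrays.

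**Figure D2:**
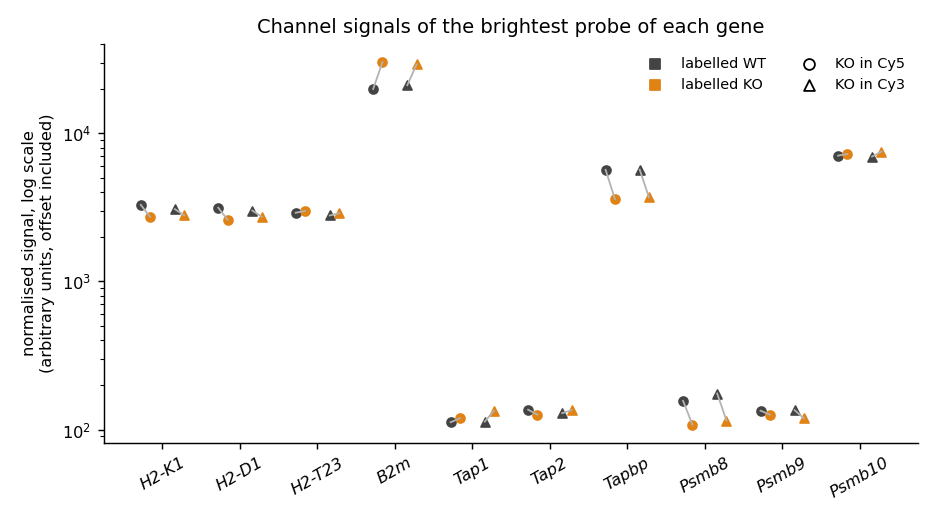
Normalised signal (log y axis, arbitrary units with the offset of 50 included) of the brightest probe of each gene, WT in grey and KO in orange, with circles for the array with KO in Cy5 and triangles for the other. Lines join the RNAs hybridised to the same array: B2m is higher in KO, at 30286 and 29224, and Tapbp lower, at 3597 and 3692. Levels of different probes cannot be compared.

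The loading gene Tapbp was the 1 gene called at 1.5-fold. Its log2 ratio was the lowest of the 10 as processed here, while with a smaller offset, no background subtraction, median centring, the software's ratio, the deposited table or the mean over all probes Psmb8 was lower. Its brightest probe (chr17:33539531-33539590, mm8) read 3597 in KO against 5671 in WT with KO in Cy5, and 3692 against 5688 with the dyes exchanged. The WT signals were clearly above both KO signals, at log2 ratios of -0.66 and -0.62 and 64.2% of WT. The second probe, designed to another transcript record of the gene, read 207 and 304, then 219 and 299, and gave -0.55 and -0.45. The mean for the brightest probe was 6.62 SDs below 0, and 7.60% of all genes tested lay lower.

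The transporter genes were dim. Tap1 read 119 in KO and 112 in WT, then 134 and 113, a log2 ratio of 0.09 and 0.25. KO was the higher RNA both times, but the mean of 0.17 was within 2 SDs of 0 (1.73 SDs). Tap2 read 126 and 136, then 135 and 129 with the dyes exchanged, at -0.11 and 0.07. The order of its RNAs changed with the dyes, and its mean was -0.02. Each gene had 1 probe, at chr17:33804121-33804180 and chr17:33825052-33825639. Tap1 and Psmb9, which share a promoter region, differed by 0.19 and 0.42 on the log2 scale.

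Of the immunoproteasome subunits, Psmb8 (LMP7), which replaces Psmb5, was lower in the RNA labelled KO by both of its probes. The brighter one (chr17:33811095-33811419, mm8) read 108 in KO and 156 in WT, then 115 and 175. The other (chr17:33811038-33811097) read 89 and 147, then 97 and 158. KO was below WT in all 4 pairs. The log2 ratios were -0.54 and -0.61 for the brighter probe, 67.3% of WT, and -0.72 and -0.70 for the other. The signals include the offset of 50, which takes up a large part of them and pulls the ratio towards 0. By the scanner software's own background-corrected ratio, which has no offset, the brighter probe was 2.28-fold lower in KO and the other 2.73-fold lower.

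Psmb9 (LMP2), which replaces Psmb6, read 126 in KO and 134 in WT, then 119 and 135, and gave log2 ratios of -0.10 and -0.17 (chr17:33792517-33792576). KO was the lower RNA on both arrays, at 91.0% of WT here and 1.40-fold lower by the software's ratio. For Tap1, likewise dim, the software's ratio was 1.28-fold higher in KO in place of 1.12-fold. Psmb10 (MECL-1), which replaces Psmb7, read 7254 in KO and 7072 in WT, then 7530 and 6977, at chr8:108824906-108824965. Its log2 ratios of 0.04 and 0.11 lay within 1 SD of 0 (0.758 SDs). Psmb8 stood 0.64 below Psmb10, 4.71 times the SD of such a difference, so the immunoproteasome subunits did not share 1 ratio.

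**Figure D3:**
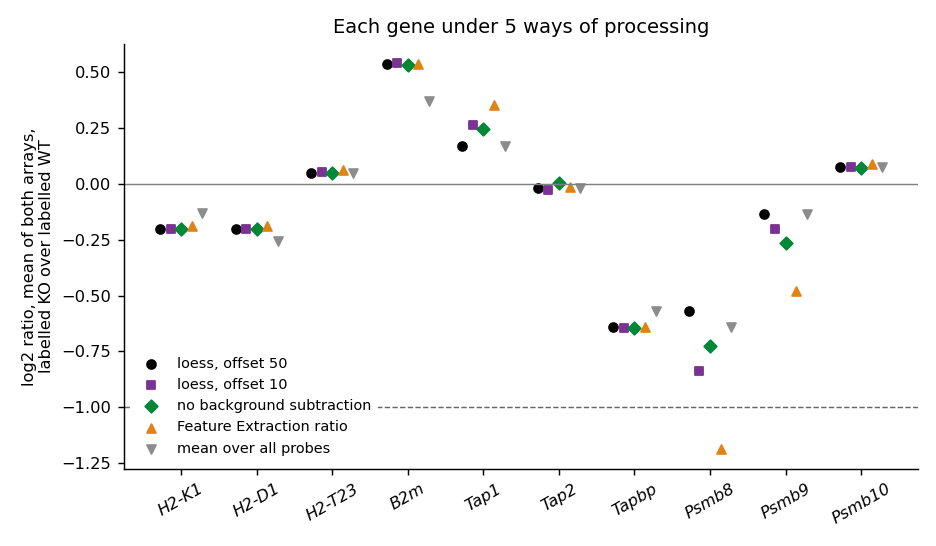
Mean log2 ratio of both arrays for each gene (y axis) under 5 ways of processing, with the dashed line at 2-fold lower. H2-K1, H2-D1, H2-T23, Tapbp and Psmb10 change little, while Psmb8 runs from -0.57 to -1.19 and Psmb9 from -0.14 to -0.48, lowest by the Feature Extraction ratio.

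Ordered by log2 ratio with the offset of 50, the genes ran from Tapbp (-0.64) and Psmb8 (-0.57) through H2-D1 and H2-K1 (both -0.20), Psmb9 (-0.14) and Tap2 (-0.02) to H2-T23 (0.05), Psmb10 (0.07), Tap1 (0.17) and B2m (0.54). With that offset the gap between Tapbp and Psmb8 was within the spread between arrays (0.504 SDs of a difference), as were the gaps between neighbours from H2-D1 to Tap1. By the software's ratio Psmb8 was at -1.19 and Tapbp at -0.64, in the opposite order. Beyond 2 SDs of the mean lay 4 genes below 0 and 1 above, 50% of the 10, where 55.9% of all genes tested lay that far from 0.

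**Figure D4:**
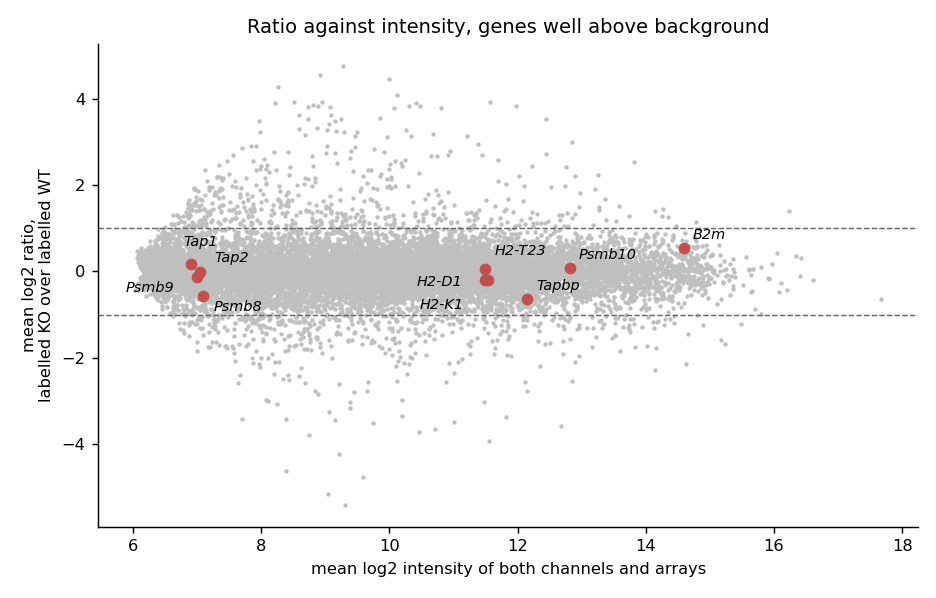
Mean log2 ratio of KO over WT (y axis) against mean log2 intensity (x axis) for 15877 genes well above background, grey, with the 10 class I presentation genes in red and dashed lines at 2-fold. All 10 lie between the lines, and Tap1, Tap2, Psmb8 and Psmb9 sit at the dim end.

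The constitutive proteasome, which cuts proteins in all cells, gives a comparison for the immunoproteasome. Of its 14 core subunit genes listed, 13 were well above background, none was called at 1.5-fold in either direction, and their median log2 ratio was 0.07. The counterparts, named after their values were seen, read 0.28 for Psmb5, 0.02 for Psmb6 and 0.07 for Psmb7. Psmb8 stood 0.85 below Psmb5 (6.21 SDs of the difference), Psmb9 stood 0.16 below Psmb6 (1.17 SDs), and Psmb10 and Psmb7 differed by less than 0.001. Of 5 activator and assembly genes, none was called either, with a median of 0.25.

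The other genes of peptide loading and trimming, such as calreticulin, calnexin and Erap1 (Arts1 on the array), all stayed below 1.5-fold: 6 of 6 were well above background, with a median of -0.12. Tapbpl, a close relative of tapasin that edits peptides, was at 0.36 and 0.21 on the arrays, the opposite side of 0 from Tapbp, and the gap between their means of 0.93 was 6.77 SDs of such a difference. Further class I heavy chains of the Q, T and M regions numbered 21 on the array, of which 9 were well above background and 0 called. Their median was 0.04. H2-M3, which presents formylated peptides, was highest by its brightest probe, at 1.01 and 0.58, with its second probe at 0.02. Tapbpl and H2-M3 were picked after their values were seen.

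Among 11 genes of class I-like proteins and of ligands of the receptor NKG2D, 8 were well above background. At 2-fold 1 was higher and 0 lower, where 2.95% and 2.61% of all genes were. The gene called higher was Mr1, which presents vitamin B metabolites to a subset of T cells. It was at log2 ratios of 1.91 and 2.03, 3.92-fold higher in KO. At 1.5-fold on both arrays 2 were higher and 0 lower, where 7.04% and 7.17% of all genes were. Most of the 10 genes lie together on chromosome 17. Between the brightest probes of Tapbp and H2-T23, which span 2.10 Mb (chr17:33539531-35638682, mm8) and hold 8 of the 10, 91 other genes were well above background, with a median log2 ratio of -0.01. Of these, 1 was called 2-fold lower (1.1%) and 3 higher (3.3%), close to the 2.61% and 2.95% of all genes.

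Interferons act on class I promoters through their receptors and through transcription factors such as Stat2. Of 17 measured factors of class I promoters, 16 were well above background. Stat2 was the only one called at 2-fold, at -1.69 and -1.56, 3.08-fold lower in KO. The list's median was -0.29, with 10 factors below 0 on both arrays and 3 above. Nlrc5 and Irf9 were not analysed here. Of 9 genes of interferon receptors, Janus kinases and their inhibitors Socs1 and Socs3, all were well above background and 0 were called at 2-fold. At 1.5-fold 2 were higher, the receptor genes Ifngr2 (0.97) and Ifnar1 (0.90), where 7.04% of all genes were. Another 2 were lower, the inhibitors Socs1 (-0.63) and Socs3 (-0.71), where 7.17% of all genes were. These genes were named after their values were seen. Of 9 interferon genes, 8 were not well above background.

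Among 31 interferon-stimulated genes outside antigen presentation, 26 were well above background, 9 were at least 2-fold lower in KO and 1 higher, where 2.61% and 2.95% of all genes were. By the software's ratio 17 were lower and 1 higher, where 5.45% and 5.93% of all genes were. Their median log2 ratio was -0.65, beside -0.08 for the 10 class I genes. The lowest were Usp18, a brake on interferon signalling, at -2.27 and -2.05, and Ifit1, which binds viral RNA, at a mean of -2.07. The virus tether Bst2 was at -1.68 and -1.71, and the GTPase Irgm2, named Iigp2 on the array, at -1.49 and -1.76. The gene called 2-fold higher was the GTPase Tgtp1, named Tgtp on the array, at 2.42 and 2.36 by its brightest probe, with its second probe at 0.15. At 1.5-fold 13 genes of the list were lower and 3 higher, where 7.17% and 7.04% of all genes were. Tgtp1 has a near-identical copy, so its probes may read both. The list was drawn up with earlier results of these data known.

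**Figure D5:**
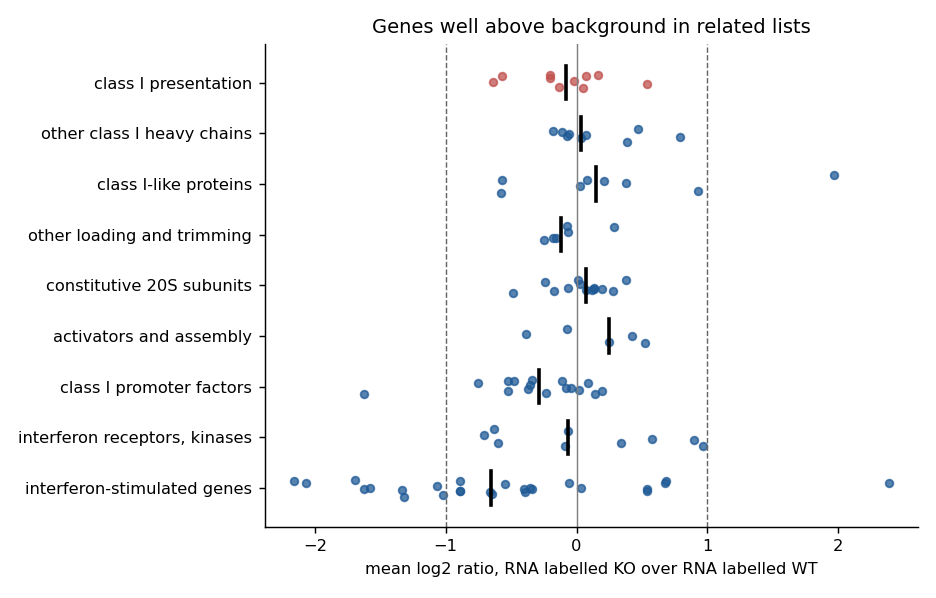
Mean log2 ratio of KO over WT (x axis) of each gene well above background in 9 lists, with the median as a bar and dashed lines at 2-fold. The 10 class I presentation genes, in red, run from -0.64 to 0.54, and the interferon-stimulated genes reach from -2.16 to 2.39 with a median of -0.65.

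Leukocytes present on class I at high levels, and their markers were read for that reason. Of 13 markers, 7 were well above background and 6, among them the defining Ptprc, Emr1 and Aif1, were not. The 7 had a median log2 ratio of 0.14, with 4 above 0 on both arrays and 1, Coro1a (-0.18), below. At 2-fold 1 was higher, where 2.95% of all genes were. This was Lyzs, the lysozyme of macrophages, 2.15-fold higher in KO by its brightest probe, with its second at a log2 ratio of 0.13. The summed signal of the list was 2367 and 2292 in KO and 1631 and 1549 in WT, offsets included, and its part in the B2m ratio was not tested. Of 12 class II presentation genes 3 were well above background and 0 were called at 1.5-fold. Endothelial markers were well above background for 0 of 7 genes and epithelial ones for 2 of 7. Fibroblast markers summed to 142937 and 131871 in KO and 205904 and 206879 in WT, and Postn, a matrix protein, was 3.24-fold lower. The median log2 ratio of the 9 markers was -0.45, with 6 below 0 on both arrays and 1 above. At 1.5-fold 2 were lower and 1 higher, where 7.17% and 7.04% of all genes were. Not every marker was lower: Fn1, fibronectin, was 1.86-fold higher and the collagen gene Col1a2 at a log2 ratio of 0.0012. Both were picked after their values were seen. In RNA of whole cultures, fewer cells of a type and less RNA per cell cannot be told apart.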

How the data were processed

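The authors scanned 2 Agilent whole mouse genome arrays (G4122F) and read them with Feature Extraction 10.5.1.1, per the labels. They deposited the mean signal and median local background of each spot as intensity, together with a log10 ratio of Cy5 over Cy3 after the software's own correction. They also deposited a table of log2 ratios, which stands among the alternatives. On the array with KO in Cy5 it equalled the software's ratio of KO over WT within 0.001 for all 16 member probes spotted once. Of 40632 probes spotted once that were compared, 75.87% were equal on both arrays.

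The intensities were corrected with limma 3.58.1 (R 4.3.3; normexp, offset 50) and normalised by loess within each array. Control spots (1639 of 45018) and outlier-flagged spots (390 and 378) were left out, and no spot was saturated. The spots of a probe were averaged, the second array's sign was turned, and both arrays were averaged as 1 replicate, since the labels describe a dye swap and name no separate samples. The brightest probe stood for a gene. Channel signals were taken after loess and Aquantile. A gene was called when each array showed it at least 2-fold, or 1.5-fold, apart in 1 direction and the software's flag put it well above background in the higher RNA. For a probe spotted repeatedly, the flag was needed in a share of 0.5 of its spots. With 1 replicate no test was made, and the number of arrays limits the precision. Multiples of an SD use the SD between arrays over all probes well above background.

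Members and lists were chosen with earlier results of these data known. All members are named, by every probe. From other lists the genes called at 2-fold were named, at most 4 in each direction, and other genes given with values were picked later, as the text says. Names are those of the array unless the text gives both; RefSeq symbols were matched by accession for 16 of 18 member probes. Probe coordinates are those of the deposited files (mm8); promoter coordinates are on GRCm38.p6. The steps were tested on simulated data: for probes with a mean log2 intensity above 9, a true log2 ratio of 1 was returned as 1.04 at the median (5 probes), but over all 25 probes so changed, dim ones and ones near background included, as 0.21, so ratios of dim genes are understated. Alternatives were offset 10, no background subtraction, median centring, the software's ratio, the deposited table, all probes averaged, genes above background in both RNAs, each array alone, the methods' t-test and limma. Python 3.11.15, pandas 2.3.3, scipy 1.17.1, statsmodels 0.14.6 and matplotlib 3.10.9 were used. Some genes of the lists are not reported here.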

Additional observations from a re-analysis of the deposited data

How the results depend on the processing

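None of the 10 genes was called 2-fold higher under any alternative run. The count called 2-fold lower, 0 here, was 1 (Psmb8) by the software's ratio and by the deposited table, and stayed at 0 under the rest. The count called 1.5-fold lower, 1 here, was 2 with offset 10, without background subtraction, by the software's ratio and by the deposited table, the additional gene being Psmb8. It was 0 with median centring, which leaves a dye effect in each array. With all probes averaged it was 1 as well, but Psmb8 (-0.64) was called and Tapbp (-0.57) was not. On single arrays it was 1 to 2, and the count called 1.5-fold higher, 0 here, was 0 to 1, the 1 being B2m on the array with KO in Cy5. The median ratio stayed below 0 throughout, between -0.11 and -0.04. Of 90 values of single genes under alternatives, 9 moved by more than 1 SD between arrays and 2 changed sign, both for Tap2. For B2m the mean over all probes was 0.37. The methods' t-test, run over both arrays, put 2 of the 10 genes past its threshold and 0 after Benjamini-Hochberg adjustment; limma's adjusted p passed for 3, and its unadjusted p for 5, none of them at 2-fold. The share of all genes past these thresholds at any size was not counted, so the 2, 3 and 5 cannot be set beside it. Such tests compare the RNAs hybridised, not the genotypes. The software's ratio, applied to the interferon-stimulated list after seeing the data, moved its count 2-fold lower from 9 to 17. No paired analysis was possible because the arrays are a dye swap of 1 pair of RNAs. Signal over background limits Tap1, Tap2, Psmb8 and Psmb9.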
